A study of Harpegnathos saltator with 27 samples.

Results

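The comparison is between ovaries of Harpegnathos saltator workers injected with JHA (methoprene, a synthetic juvenile hormone analog) and ovaries of workers injected with 20E (20-hydroxyecdysone). It rests on the 3 JHA and the 3 20E ovary libraries, 6 of the 27 RNA-seq libraries of the series, chosen by tissue and treatment label. Workers of this ant received 500 ng of JHA or 500 ng of 20E in the abdomen, or about 1 µL of 10% EtOH in a balanced salt solution as solvent control. Ovary, abdominal fat body and non-visual brain were taken 12 hours later from 3 ants per treatment. The labels give neither the age of the workers nor the state of their ovaries, and no strain or genotype. The 3 EtOH ovary libraries entered the fit to share the estimate of spread, and brain and fat body were used only to set the same contrast beside the ovary.

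Juvenile hormone and ecdysteroids are the classical pair of insect developmental hormones. Juvenile hormone and its analogs act through the receptor Methoprene-tolerant, and 20E acts through the ecdysone receptor and its partner Ultraspiracle. In adult females of many insects the ovary responds to these hormones and also makes ecdysteroids, and in this species workers can become reproductive, with active ovaries, as adults. The count table lists genes by identifier alone, and 0 of its 20659 identifiers were found among the 14329 annotated genes of the species in the reference table, so no name, role or sequence is given for any gene below.

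Each JHA library held 9736733 to 12136528 gene counts, each 20E library 12629181 to 17350451 and each EtOH library 12695123 to 14764702, with 14623 to 16053 genes having a count. Of the ovary libraries, 1 of each hormone lay far from the others of its group, JHA replicate 1 and 20E replicate 3. Distance was measured as the root mean square (RMS) log2 difference in CPM (counts relative to the library's size, scaled by TMM) over all genes tested. JHA replicate 1 lay 0.87 and 0.75 from JHA replicates 2 and 3, and 20E replicate 3 lay 0.64 and 0.60 from 20E replicates 1 and 2. From EtOH replicates 1 to 3, 20E replicate 3 lay 0.48, 0.54 and 0.47. That was little beyond the largest distance between groups among the other 7 libraries, 0.45. JHA replicate 2 was 0.39 from JHA replicate 3, and 20E replicate 1 was 0.31 from 20E replicate 2. The 4 distances between these JHA and 20E libraries, 0.36, 0.32, 0.36 and 0.41, were thus about as large as the distances inside a hormone group. The pair with the smallest of them, JHA replicate 2 and 20E replicate 2, was closer than JHA replicate 2 was to JHA replicate 3.

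**Figure D1:**
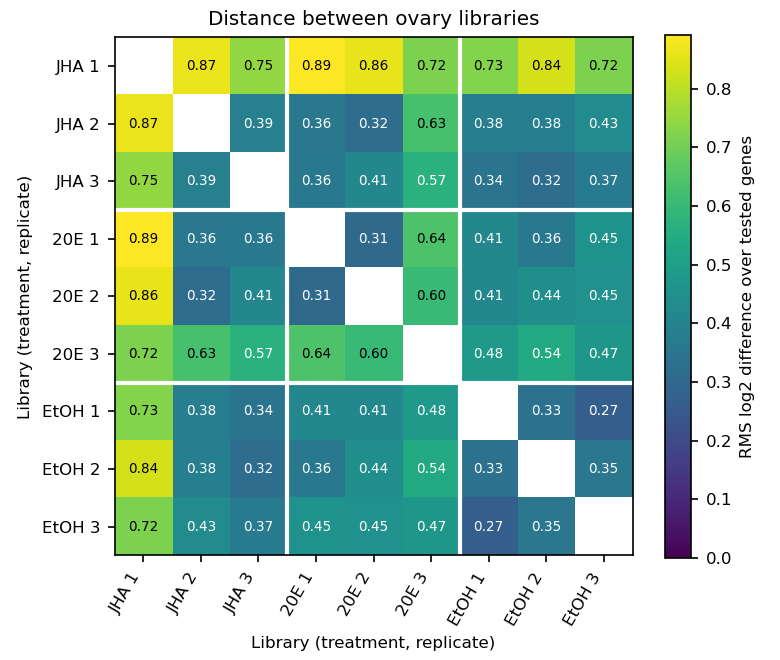
Distance between each pair of the 9 ovary libraries, as the RMS log2 difference in CPM over the 11418 tested genes. Rows and columns are libraries by treatment and replicate, and white lines part the treatments. JHA 1 is 0.72 to 0.89 (rounded) from every other library. 20E 3 is 0.64 and 0.60 from the other 20E libraries and 0.47 to 0.54 from the EtOH libraries.

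The label of the tissue was checked with genes enriched in one tissue, chosen in the EtOH libraries of the 3 tissues alone. Each such gene exceeded both other tissues by at least 8-fold, with no overlap. The 311 ovary-enriched genes took 3.66% of gene counts in JHA replicate 1, against 6.90% and 6.97% in JHA replicates 2 and 3. They took 4.39% in 20E replicate 3, against 7.31% in each of 20E replicates 1 and 2, and 6.12 to 6.57% with EtOH. The 577 fat-body-enriched genes took 4.56% in JHA replicate 1 and 3.79% in 20E replicate 3, against 2.66 to 3.12% in the other 7 libraries. The 1112 brain-enriched genes took 0.507% and 0.506% in these 2 libraries, against 0.277 to 0.354% in the other 7. In whole tissue, fewer cells of a type and less RNA per cell cannot be told apart, and the part that other tissue has in the 2 libraries was not tested. The main results below are given with all 9 ovary libraries and with the 7 that remain without JHA replicate 1 and 20E replicate 3.

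**Figure D2:**
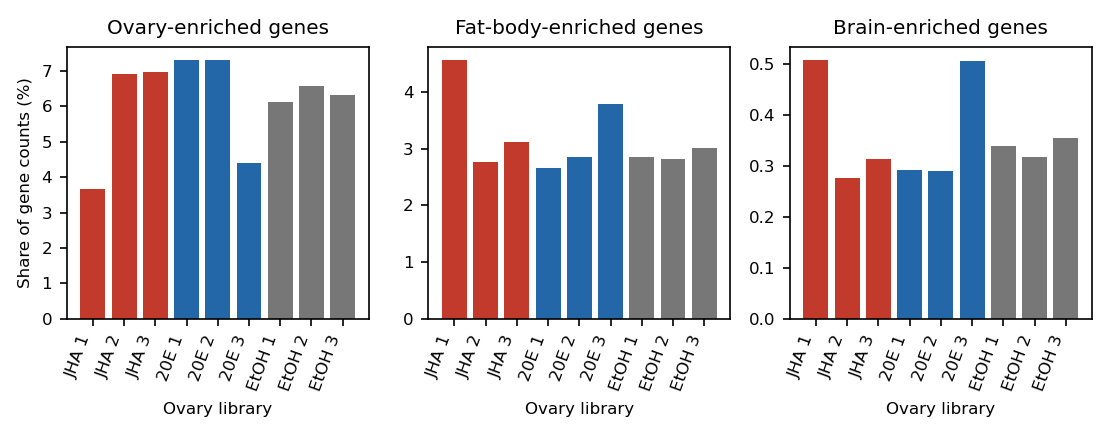
Share of each ovary library's gene counts, in percent, on genes enriched in ovary (311), fat body (577) and brain (1112), with JHA libraries in red, 20E in blue and EtOH in grey. JHA 1 and 20E 3 have the lowest ovary share, 3.66% and 4.39%, and the highest fat body and brain shares.

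With all 9 libraries, 0 of 11418 genes differed between JHA and 20E (0% called) by edgeR's quasi-likelihood test at a Benjamini-Hochberg adjusted p under 0.05. An unadjusted p under 0.05 was reached by 481 genes (4.21%), fewer than the 571 that 5% of the tests would give. Of these 481, 284 were nominally higher with JHA and 197 lower. The split rested on single libraries, with 31.7% higher without 20E replicate 2 and 71.8% higher without JHA replicate 2. It also turned with the filter on low counts, with 310 higher and 374 lower without one, and 195 higher and 204 lower at a mean of at least 2 CPM. The count was 871 without JHA replicate 2 and 853 without 20E replicate 3. The 3 JHA values did not overlap the 3 20E values in 732 genes (6.41%), with JHA above 20E in 428 (3.75%) and below in 304 (2.66%). On the same libraries DESeq2's Wald test called 60 genes, 25 higher and 35 lower with JHA, and limma voom with library weights called 5, all lower with JHA.

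The median gene had a 95% confidence interval of its log2 fold change (JHA over 20E) of ±0.58. For 7044 genes (61.7%) the interval lay wholly inside a 2-fold change in either direction, and for 41 genes it lay wholly beyond 2-fold, before any adjustment for the number of genes. In the fit of 7 libraries the median interval was ±0.37 and 8229 genes (72.0%) lay inside 2-fold. The spread between replicates, as the common biological coefficient of variation, was 0.307 with 9 libraries and 0.169 with 7. Leaving out libraries that lie far from their groups narrows spread and intervals by itself.

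Without JHA replicate 1 and 20E replicate 3, 8 of 11436 genes were called (0.07%), 2 higher and 6 lower with JHA, and 960 (8.39%) had an unadjusted p under 0.05. These 2 libraries were set apart on the same values that were then tested. Leaving them out lowers the spread within groups by itself, so p-values and standard errors with 7 libraries may be too small. With 2 libraries a group, 4628 genes (40.5%) had no overlap between JHA and 20E. Of the 8 called genes, 4 were also called for JHA against 20E in brain, where 271 of 12379 genes (2.19%) were called. In fat body, where 80 of 9870 genes (0.811%) were called, 0 of the 8 were. The count of 8 itself rested on single libraries, being 2 without 20E replicate 2 and 4 without JHA replicate 3. Neither the genes nor their split held in every setting. With only the 4 remaining JHA and 20E libraries 7 genes were called, 6 higher and 1 lower with JHA, of which 2 were among the 8. DESeq2 called 132, 80 higher and 52 lower with JHA, and all 8 were among them. All 8 were also among the 49 called without a filter on low counts.

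The largest difference among the called genes was that of HSALG000871.2. It stood at 0.547, 0.248 and 0.521 CPM in JHA replicates 1 to 3, against 7.07, 14.3 and 36.8 CPM in 20E replicates 1 to 3 and 0.277, 0.472 and 0.161 CPM with EtOH. All 3 20E ovaries lay far above every JHA ovary, and the JHA and EtOH ranges overlapped. With JHA and EtOH levels this low, the gene may have been measured in ovary only because 20E was high. Such a gene could only come out lower with JHA, and the size of its fold change rests on few reads with JHA. Its log2 fold change (JHA over 20E) was -4.80 (SE 0.57, adjusted p = 0.0375) with 7 libraries and -5.45 (95% interval -7.09 to -3.81, adjusted p = 0.136) with 9. The gene was among the fat-body-enriched genes, and its highest value was in 20E replicate 3, where the fat-body-enriched share was the highest of the 20E libraries. In 20E replicates 1 and 2, where that share was 2.66% and 2.85%, it was at 7.07 and 14.3 CPM. In fat body itself it was at 11.2, 6.46 and 9.50 CPM with JHA, against 11.7, 11.6 and 37.8 CPM with 20E (adjusted p = 0.307). The difference in ovary exceeded that in fat body by 4.32 log2 units in absolute size (adjusted p = 0.0131, edgeR test of the difference).

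HSALG001036.2 was also lower with JHA. It was at 8.39, 9.77 and 9.69 CPM with JHA, against 29.4, 51.0 and 153 CPM with 20E and 14.1 to 17.0 CPM with EtOH. The JHA ovaries were tightly grouped below EtOH, and the 20E ovaries were widely spread above it. The log2 fold change was -2.05 (SE 0.26, adjusted p = 0.047) with 7 libraries and -3.07 (adjusted p = 0.348) with 9. In brain the same gene was at 8.25, 14.8 and 14.7 CPM with JHA, against 280, 449 and 492 CPM with 20E (log2 fold change -5.02, adjusted p = 0.000209).

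The 2 called genes that were higher with JHA had smaller differences than HSALG000871.2 and HSALG001036.2. HSALG004247.1 was at 71.8 and 64.7 CPM in JHA replicates 2 and 3, against 24.9 and 27.3 CPM in 20E replicates 1 and 2 and 97.7 to 108 CPM with EtOH. Both hormone groups lay below EtOH, the 20E group further. The log2 fold change of JHA over 20E was 1.39 (SE 0.10, adjusted p = 0.00544). The 2 libraries that were left out did not follow this order, since JHA replicate 1 was at 21.8 CPM and 20E replicate 3 at 53.5 CPM. With all 9 libraries the value was 0.58 (95% interval -0.39 to 1.56, adjusted p = 0.969). In brain it was at 47.8, 47.8 and 59.2 CPM with JHA, against 20.0, 14.6 and 12.0 CPM with 20E (log2 fold change 1.73, adjusted p = 0.00405). HSALG004410.2 was at 514, 186 and 197 CPM with JHA, against 112, 123 and 159 CPM with 20E and 173 to 177 CPM with EtOH (log2 fold change 0.71, adjusted p = 0.0375 with 7 libraries; 1.19, adjusted p = 0.911 with 9). Its EtOH libraries stood between the hormone groups.

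The other 4 called genes, named after their values were seen, were all lower with JHA. Their log2 fold changes with 7 libraries were -1.23 for HSALG004909.2, -1.72 for HSALG004767.2, -1.06 for HSALG001674.2 and -1.30 for HSALG000386.2. With 9 libraries they were -1.46 (adjusted p = 0.136), -2.07 (adjusted p = 0.348), -1.91 (adjusted p = 0.464) and -1.03 (adjusted p = 0.834). In each of the 4, all 3 JHA values lay below all 3 20E values. HSALG004909.2 stood at 20.2, 19.9 and 17.3 CPM with JHA, against 43.6, 43.5 and 71.1 CPM with 20E and 28.4 to 30.0 CPM with EtOH. HSALG004767.2 stood at 255, 149 and 193 CPM with JHA, against 544, 582 and 1384 CPM with 20E and 133 to 177 CPM with EtOH. The first lay on opposite sides of EtOH with the 2 hormones, while for the second only the 20E libraries lay outside the range of the others. HSALG004767.2 and HSALG000386.2 were among the 4 called in brain too, with log2 fold changes of -2.66 and -1.32 there.

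Among all 9 libraries, the smallest adjusted p was 0.136, shared by 5 genes that were all lower with JHA. HSALG021601.1 had the smallest p of all. It stood at 1.19, 0.911 and 1.04 CPM with JHA, against 6.12, 6.08 and 6.07 CPM with 20E and 1.94, 2.52 and 1.45 CPM with EtOH. Within each hormone group the 3 ovaries were close together, and JHA replicate 1 and 20E replicate 3 did not stand apart for this gene. The log2 fold change was -2.53 (SE 0.31, 95% interval -3.23 to -1.83) with 9 libraries and -2.64 (adjusted p = 0.0667) with 7. In brain it was at 0.085, 0.411 and 0.472 CPM with JHA, against 3.87, 2.43 and 2.97 CPM with 20E (adjusted p = 0.0203). A further 2 genes with identifier numbers close to it, HSALG021598.1 and HSALG021600.1, singled out after their values were seen, had log2 differences of -2.98 and -2.24 in ovary (adjusted p = 0.299 for both) and were called in brain at -2.90 and -2.97. Whether the 3 lie together in the genome is not known from the sources used here, and reads shared between near-identical copies could link their counts.

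HSALG006566.2 was at 18.1, 13.7 and 15.7 CPM with JHA, against 44.6, 79.8 and 84.6 CPM with 20E and 15.9 to 22.9 CPM with EtOH. The JHA and EtOH ranges met, and all 20E ovaries lay above both. The log2 fold change was -2.13 (95% interval -2.74 to -1.52, adjusted p = 0.136) with 9 libraries and -2.08 (adjusted p = 0.101) with 7. In brain it was called at -1.44 (adjusted p = 0.0162), and in fat body it was at 217, 166 and 184 CPM with JHA, against 193, 135 and 132 CPM with 20E (log2 difference 0.30, adjusted p = 0.7). The ovary difference was 2.49 log2 units below that of fat body (adjusted p = 0.00143).

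Of the genes nominally higher with JHA in 9 libraries, HSALG004093.1 and HSALG009402.1 had the smallest p. HSALG004093.1 was at 13.9, 4.22 and 3.85 CPM with JHA, against 0.530, 0.194 and 0.845 CPM with 20E and 4.84, 3.23 and 8.63 CPM with EtOH. Here JHA and EtOH overlapped and 20E stood below both (log2 difference 3.80, 95% interval 2.15 to 5.46, adjusted p = 0.371, and 3.43, adjusted p = 0.123, with 7 libraries). HSALG009402.1 was at 158, 119 and 88.7 CPM with JHA, against 48.8, 56.3 and 66.6 CPM with 20E and 65.6 to 79.2 CPM with EtOH. Every JHA ovary lay above EtOH and 20E (log2 difference 1.09, adjusted p = 0.383, and 0.99, adjusted p = 0.0931, with 7 libraries). In fat body HSALG009402.1 was at 759, 1138 and 603 CPM with JHA, against 217, 83.3 and 44.9 CPM with 20E (log2 difference 2.86, adjusted p = 0.0568).

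**Figure D3:**
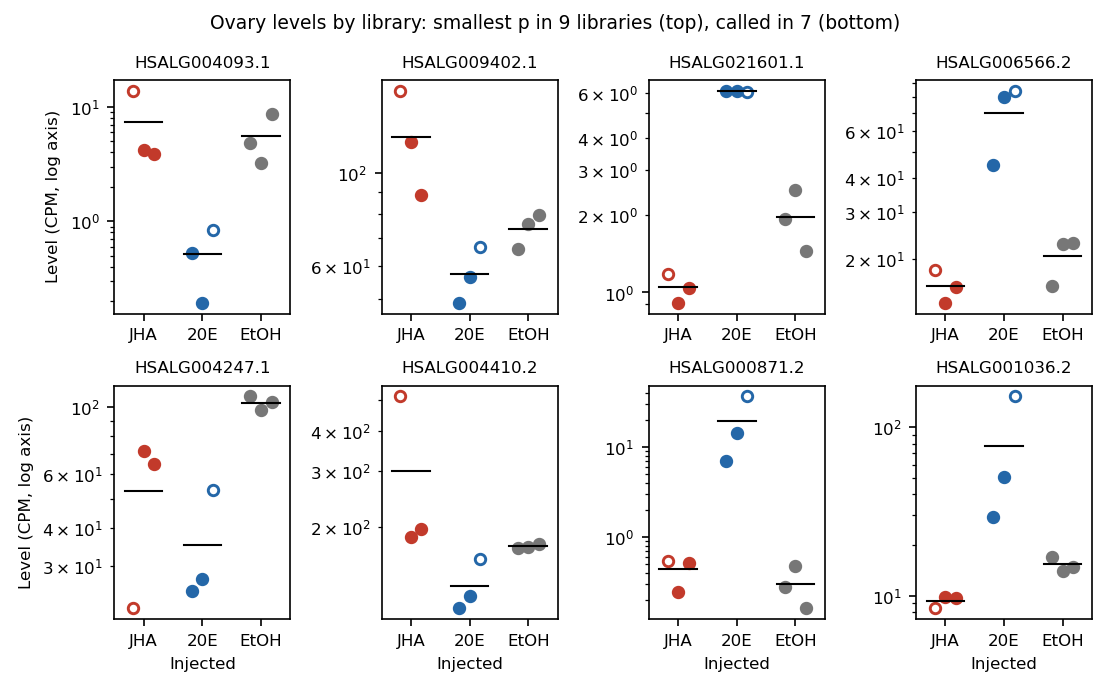
Level of 8 genes in each ovary library, in CPM on a log axis, by injected substance (JHA, 20E, EtOH); points are libraries, lines are means of 3, and open points are JHA replicate 1 and 20E replicate 3. In HSALG021601.1 the 3 20E libraries sit between 6.07 and 6.12 CPM above every JHA library, while in HSALG004247.1 the open points cross over.

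The EtOH libraries were then placed on the line between the hormones. Among the 960 genes with an unadjusted p under 0.05 in 7 libraries, the mean of EtOH lay nearer to that of JHA than to that of 20E in 785 (81.8%), and the same held for 7374 (64.5%) of all genes tested. With 9 libraries it lay nearer to JHA in 261 of 481 (54.3%), against 3826 (33.5%) of all genes tested. For most genes the mean of EtOH was thus nearer to 20E with JHA replicate 1 and 20E replicate 3 counted, and nearer to JHA without them. Among the 8 called genes EtOH lay nearer to JHA in 6 (75%, against 64.5% of all genes tested). It lay between both hormones in 5 of the 8, against 46.0% of the 960 and 24.0% of all genes tested with 7 libraries. JHA and 20E each share these EtOH libraries when set against them. For HSALG000871.2, JHA over EtOH was 0.29 (adjusted p = 0.909) and 20E over EtOH was 5.09 (adjusted p = 0.00508) on the log2 scale with 7 libraries. For HSALG004909.2 the values were -0.65 (adjusted p = 0.173) for JHA over EtOH and 0.57 (adjusted p = 0.0316) for 20E over EtOH.

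Of the 311 genes enriched in ovary, 14 had an unadjusted p under 0.05 with 9 libraries (4.50%, against 4.21% of all genes), 219 lay below 0, and their median log2 fold change was -0.16. Without the 2 libraries their median was -0.02, 143 lay above 0, and 43 had an unadjusted p under 0.05 (13.8%, against 8.39% of all genes). Of the 438 fat-body-enriched genes that were measured, 298 lay above 0, where 50.8% of all genes did. Their median was 0.17, and 39 had an unadjusted p under 0.05 (8.90%, against 4.21% of all genes). With 7 libraries 273 lay above 0, the median was 0.13, 70 had an unadjusted p under 0.05 (16.0%, against 8.39%), and 1 was called, HSALG000871.2. Of the 515 brain-enriched genes measured, 229 lay above 0, with a median of -0.06, and 39 had an unadjusted p under 0.05 (7.57%). With 7 libraries that median had the other sign, at 0.12, with 311 of 513 above 0 and 47 at an unadjusted p under 0.05 (9.16%).

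The same hormone contrast in brain and fat body was then followed into the ovary. These are other libraries, but the tissues came from 3 ants per treatment, so the ovary values may share their ants. Of the 188 genes called lower with JHA in brain, 166 were measured in ovary, 129 of them (77.7%) below 0, against 49.2% of all genes tested. Their median log2 fold change in ovary was -0.34, against -1.35 for the same genes in brain, and 38 (22.9%) were below 0 with an unadjusted p under 0.05, against 1.73% of all genes tested. Of the 83 called higher with JHA in brain, 42 of 77 measured (54.5%) lay above 0 in ovary, against 50.8% of all genes tested. Their median was 0.05, and 14 (18.2%) were above 0 with an unadjusted p under 0.05, against 2.49% of all genes tested. Without the 2 libraries the shares with the sign seen in brain were 67.1% (median -0.12) for the lower list and 72.7% (median 0.16) for the higher list, against 48.7% and 51.3% of all genes tested.

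Of the 47 genes called lower with JHA in fat body, 42 of 46 measured lay below 0 in ovary (91.3%, against 49.2% of all genes tested), with a median of -0.41. Below 0 with an unadjusted p under 0.05 were 8 of the 46 (17.4%, against 1.73%). Of the 33 called higher, 21 of 31 measured lay above 0 (67.7%, against 50.8%), with a median of 0.23, and 4 were above 0 with an unadjusted p under 0.05 (12.9%, against 2.49%). With 7 libraries 76.1% of the lower list lay below 0, against 48.7% of all genes tested (median -0.14), and 87.1% of the higher list above 0, against 51.3% (median 0.19). In both lists the ovary differences were small beside those in fat body, where the medians of the genes measured in ovary were -2.60 and 1.50.

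**Figure D4:**
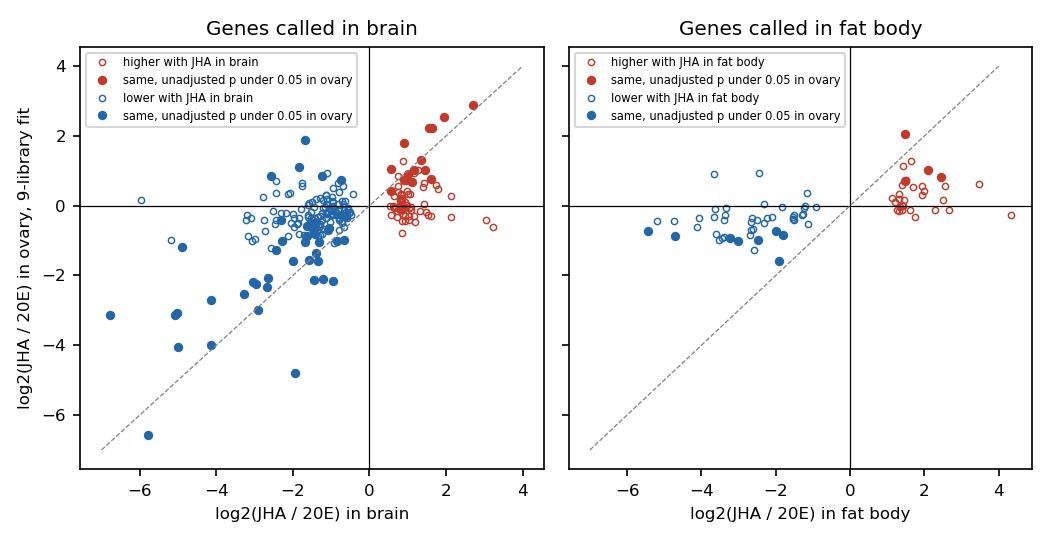
log2 fold change of JHA over 20E in ovary (9 libraries) against that in brain (left) and fat body (right), for genes called in those tissues; red, higher with JHA there; blue, lower with JHA; filled, unadjusted p under 0.05 in ovary; dashed, equal values. Most blue points lie below 0 in ovary (129 of 166 and 42 of 46), where some may have been measured only because 20E was high.

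The genes with the largest brain differences were also read in ovary. Of the 27 genes at least 8-fold lower with JHA in brain, 17 were measured in ovary, 16 of them below 0 (49.2% of all genes tested were) and 10 with an unadjusted p under 0.05 (4.21% of all genes tested). Their median log2 fold change was -2.18 in ovary and -4.15 in brain, and -1.80 in ovary with 7 libraries, where 15 of the 17 lay below 0. The bound of 8-fold was chosen after the values were seen. Some of the 17 may have been measured in ovary only because 20E was high, and such a gene could only lie below 0. HSALG008131.2, of the 17, was at 0.182, 0.166 and 0 CPM with JHA, against 1.24, 14.7 and 21.6 CPM with 20E. How many of the 17 are of this kind was not counted, so the share below 0 is not like that of all genes. For the same reasons the 10 with an unadjusted p under 0.05 and the medians in ovary cannot be set evenly against all genes.

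The contrast was called in both brain and fat body for 12 genes, 11 lower and 1 higher with JHA. In ovary 11 of these 12 had that sign and 4 had an unadjusted p under 0.05, against 4.21% of all genes tested. Their median log2 fold change was -0.40 in ovary, against -1.36 in brain and -2.55 in fat body. Without the 2 libraries 7 of the 12 had it. The gene that was higher in both tissues, HSALG012347.2, was at 21.5, 14.2 and 14.6 CPM with JHA in ovary, against 6.48, 6.47 and 11.6 CPM with 20E and 10.2 to 18.1 CPM with EtOH. Its JHA and 20E values did not overlap (log2 difference 1.04, adjusted p = 0.966, and 1.15, adjusted p = 0.256, with 7 libraries). HSALG000390.2, of the 11, was at 47.7, 45.5 and 54.0 CPM with JHA, against 76.3, 87.8 and 125 CPM with 20E and 37.0 to 45.0 CPM with EtOH (log2 difference -0.97, adjusted p = 0.371). These 2 of the 12 were chosen for mention after their values were seen.

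Whether the contrast differed between tissues was tested directly, in 1 fit over all 27 libraries. Between ovary and brain the difference was called for 7 of 13367 genes (0.0524%), and 550 had an unadjusted p under 0.05. The count was 4 without JHA replicate 1, 2 without 20E replicate 1, 4 without 20E replicate 2 and 3 without both JHA replicate 1 and 20E replicate 3. All 7 were genes called in brain, where 20E exceeded JHA and where 2.19% of all genes tested were called. The difference is computed from the same brain values, so this overlap is partly built in. HSALG015071.2 stood at 59.8, 56.0 and 40.9 CPM with JHA in ovary, against 60.8, 54.3 and 74.2 CPM with 20E. In brain it stood at 47.9, 37.7 and 36.9 CPM with JHA, against 218, 351 and 564 CPM with 20E. The ovary groups overlapped and the brain groups were far apart (difference 2.89 log2 units, SE 0.40, adjusted p = 0.00445). HSALG013686.2 was at 46.0, 42.5 and 31.5 CPM with JHA, against 47.9, 48.7 and 61.2 CPM with 20E in ovary, a narrow gap without overlap (difference from brain 2.79 log2 units, adjusted p = 0.00451). Its ovary interval, -0.81 to 0.02 on the log2 scale, did not reach the value of -3.23 found in brain. HSALG013686.2 and HSALG015071.2 had almost the same log2 fold changes in brain (-3.23 and -3.21) and in fat body (-3.39 and -3.37). They may not be 2 separate results, since reads shared between near-identical copies could link their counts, which was not tested.

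Of the 7, 5 had ovary and brain values of opposite sign, which picking genes by the size of a difference favours. With an unadjusted p under 0.05 in ovary were 3 of the 5, against 4.21% of all genes tested. HSALG012308.2, named after its values were seen, was at 20.2, 16.7 and 14.9 CPM with JHA in ovary, against 10.0, 8.99 and 9.60 CPM with 20E. In brain it was at 17.9, 18.5 and 17.8 CPM with JHA, against 35.7, 36.4 and 55.9 CPM with 20E. Every JHA ovary lay above every 20E ovary, and every JHA brain below every 20E brain. The difference was 2.05 log2 units (adjusted p = 0.0455). That call was lost in 8 of 12 alternatives, among them the fit without JHA replicate 1 and 20E replicate 3 (1.90, adjusted p = 0.212).

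Between ovary and fat body the difference was called for 67 of 13367 genes (0.501%), 38 above 0 and 29 below, with 1333 at an unadjusted p under 0.05. The count was 40 without 20E replicate 2 and 54 without JHA replicate 1 and 20E replicate 3. Of the 67, 29 were called in fat body, where 0.811% of all genes tested were. Also of the 67, 15 had an unadjusted p under 0.05 in ovary with 9 libraries, against 4.21% of all genes tested. The difference is computed from these same values, so such overlap is partly built in. The larger absolute value was in ovary for 7 of the 64 measured in both. HSALG001741.2 stood at 33.92, 18.05 and 19.27 CPM with JHA in ovary, against 31.98, 34.73 and 62.15 CPM with 20E. In fat body it was at 3.82, 1.30 and 2.25 CPM with JHA, against 64.6, 61.9 and 66.4 CPM with 20E. The ovary groups overlapped through JHA replicate 1, and the log2 difference was -0.85 in ovary (adjusted p = 0.969) and -4.71 in fat body. The 2 tissues differed by 3.80 log2 units (SE 0.43, adjusted p = 0.000142). HSALG015071.2 differed from fat body too, by 3.04 log2 units (adjusted p = 0.000614).

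For HSALG009158.1 and HSALG029765.1 the difference, ovary minus fat body, was below 0, at -2.11 (adjusted p = 0.000407) and -1.79 (adjusted p = 0.000614). HSALG009158.1 was at 66.6, 80.8 and 74.8 CPM with JHA in ovary, against 82.7, 77.9 and 115 CPM with 20E, and in fat body at 26.4, 29.2 and 25.6 CPM with JHA, against 7.28, 6.44 and 10.6 CPM with 20E. HSALG029765.1 was at 30.2, 39.5 and 30.8 CPM with JHA in ovary, against 31.1, 34.5 and 44.9 CPM with 20E, and in fat body at 13.5, 17.2 and 16.2 CPM with JHA, against 5.83, 4.36 and 5.23 CPM with 20E. For both genes JHA and 20E overlapped in ovary, and JHA stood above 20E in every fat body library. Picking genes by the size of a difference favours opposite signs, and the share of opposite signs over all genes is not given here. Of the 67 called genes, 36 had ovary and fat body values of opposite sign, these 2 among them. HSALG012632.2, named after its values were seen, was another. It was at 65.0, 55.5 and 35.7 CPM with JHA in ovary, against 152, 136 and 327 CPM with 20E, and in fat body at 65.6, 59.2 and 73.1 CPM with JHA, against 39.7, 10.4 and 13.0 CPM with 20E (difference -3.66 log2 units, adjusted p = 0.0031). Neither single-tissue value passed (adjusted p = 0.348 in ovary and 0.188 in fat body).

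**Figure D5:**
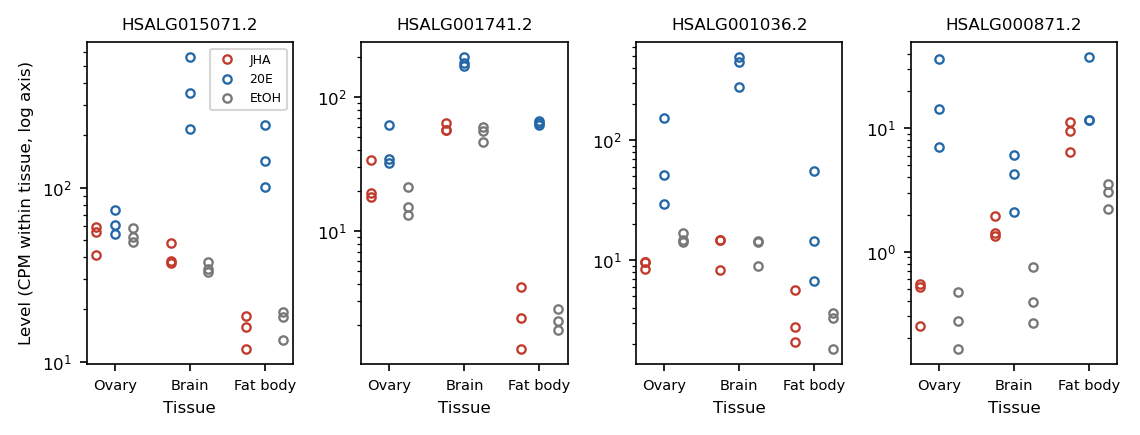
Level of 4 genes in each library of ovary, brain and fat body, in CPM on a log axis, scaled within each tissue; red, JHA; blue, 20E; grey, EtOH. HSALG015071.2 separates JHA from 20E in brain and fat body with overlap in ovary, whereas HSALG000871.2 is furthest apart in ovary, at 0.248 to 0.547 CPM with JHA and 7.07 to 36.8 CPM with 20E. HSALG000871.2 may have been measured in ovary only because 20E was high.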

How the data were processed

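Raw read counts per gene were used as deposited by the authors, from poly(A) libraries per the labels' protocols. The submitters' processing notes name HTSeq, STAR 2.5.3a and Trimmomatic. For build, annotation and strandedness the sources used here give nothing, so reads of overlapping or antisense genes may be mixed. The 5 HTSeq summary lines were left out. In the 9 ovary libraries 35.0 to 38.5% of a column's sum came from reads in no gene, 6.58 to 8.11% from reads with several alignments and 0.700 to 0.852% from ambiguous reads.

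The test was edgeR's quasi-likelihood test (version 4.0.16, R 4.3.3, with TMM, filterByExpr and robust glmQLFit), in 1 fit of the 9 ovary libraries with JHA minus 20E as the contrast, likewise per tissue, and in 1 fit of 27 libraries for differences between tissues, which treats the tissues of an ant as independent. A gene was called where its p, adjusted by Benjamini-Hochberg over all genes tested, was under 0.05. Standard errors follow from the F statistic. Distances used log2(CPM + 2). Tissue-enriched genes needed a mean of at least 2 CPM in EtOH libraries. DESeq2 1.42.0 and limma 3.58.1 served as alternatives.

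The comparison, gene lists and alternatives were chosen with earlier results of these data known. By rule, 2 genes higher and 2 lower were named per comparison, with a mean of at least 2 CPM: called genes by largest fold change without overlap (for tissue differences, by smallest adjusted p), or by smallest p where fewer than 5 were called. Per the series' design the tissues came from 3 ants, and no label ties a replicate number to an ant, so p-values measure the spread between libraries.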

Additional observations from a re-analysis of the deposited data

Results flagged for a closer look

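The contrast of JHA against 20E differed between tissues by a direct test for 7 genes between ovary and brain and for 67 between ovary and fat body. Against brain, the differences of the named genes were 2.89 log2 units for HSALG015071.2, 2.79 for HSALG013686.2 and 2.05 for HSALG012308.2. Against fat body they were 3.80 for HSALG001741.2, 3.04 for HSALG015071.2, -2.11 for HSALG009158.1, -1.79 for HSALG029765.1 and -3.66 for HSALG012632.2. Apart from HSALG012308.2, each of these passed in all 12 alternatives run for it. Dixon's test for a single outlying value was not run, because each group holds 3 libraries. JHA replicate 1 and 20E replicate 3 were set apart by their distances and their shares of tissue-enriched genes, with no test.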

How the results depend on the processing

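With all 9 libraries the count of 0 genes called became 60 with DESeq2's Wald test, 5 without a filter on low counts, 5 with limma voom and library weights, and 8 without JHA replicate 1 and 20E replicate 3. It ran from 0 to 3 with 1 library left out, the 3 being found without 20E replicate 1. The 481 genes with an unadjusted p under 0.05 became 988 with voom, 960 without the 2 libraries and 258 with only the 6 JHA and 20E libraries, and ran from 392 to 871 with 1 left out. The 8 genes called in 7 libraries became 132 with DESeq2, 49 without a filter and 5 with voom, and ran from 2 to 12 with 1 more left out, where the lone library of a group is assumed to vary like the others. All 8 were among the 132 and the 49, and the 5 of voom were among the 8. Of the 8, 2 were among the 7 called with only the 4 remaining JHA and 20E libraries, 4 among the 12 without JHA replicate 2, 2 among the 4 without JHA replicate 3, 4 among the 11 without 20E replicate 1 and 1 among the 2 without 20E replicate 2. The 7 differences from brain became 16 with DESeq2, 308 with voom and 3 without the 2 libraries, and ran from 2 to 8 with 1 left out. The 67 from fat body became 193 with DESeq2 and 130 with voom, and ran from 40 to 74. The cause of these shifts was not tested.

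The median in ovary of the genes higher with JHA in brain, 0.05, was 0.14 with voom, 0.16 without the 2 libraries and 0.082 to 0.22 with 1 left out, and nearer to 0 with DESeq2 (0.018), DESeq2's size factors (0.024) and a mean of at least 2 CPM (0.0065). For those lower in brain, at -0.34, it was -0.14, -0.12 and -0.44 to -0.18. For the fat body lists it was 0.15 to 0.39 (higher) and -0.53 to -0.24 (lower) with 1 left out, and -0.14 (lower) without the 2 libraries. The share of counts on ovary-enriched genes in 20E replicate 3 was 0.601 of that in the other 20E libraries, and 0.713 with a 4-fold bound for enrichment, and that on fat-body-enriched genes was 1.38 and 1.21. Of the named genes followed through the alternatives, none reversed the difference it was named for. HSALG012347.2 and HSALG000390.2 were not followed. The medians of the lists called in brain and fat body kept their direction too. Other values did reverse between 9 and 7 libraries. The ovary value of HSALG029765.1, named for its difference from fat body, was -0.14 and 0.10. The median of the brain-enriched genes was -0.06 and 0.12.

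With the replicate number as a block, 0 genes were called in 9 libraries, with 368 at an unadjusted p under 0.05, and 4 in 7 libraries, of which 1 was among the 8. The blocked counts of differences were 6 from brain and 76 from fat body. Deviations of same-numbered JHA and 20E ovaries correlated at -0.455 to 0.444, with 1 of 3 pairs over 0.1. Across tissues, same-numbered libraries correlated at 0.020 to 0.276 between ovary and brain and at 0.035 to 0.288 between ovary and fat body. In each case 7 of 9 were over 0.1 and 7 of 9 ovary libraries correlated best with their own number, a hint that numbers may tie tissues together. The labels do not say what a number marks, and what shared ants add to the signs seen in ovary was not tested.

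Depths of 9736733 to 17350451 counts limit low genes, and 3 libraries a group left a median 95% interval of ±0.58 log2 units.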
